A study of Mus musculus with 8 samples.

Results

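Alpha and beta crystallins and the related gamma-S crystallin were examined in neural retinas of mice that lack multifunctional protein 2 (MFP2), an enzyme of peroxisomal β-oxidation. The 9 genes were taken by their symbols, Cryaa, Cryab, Cryba1, Cryba2, Cryba4, Crybb1, Crybb2, Crybb3 and Crygs, from 22095 symbols with at least 1 count, and all 9 were among the 12516 genes tested. Each library held the 3′ ends of polyadenylated transcripts (QuantSeq) from both neural retinas of 1 mouse, dissected with the anterior segment removed. Retinas came from 4 Mfp2-/- mice and 4 controls, all C57BL/6J mice of 3 weeks bred from heterozygous parents; control replicate 2 was Mfp2+/- and the other 3 controls were Mfp2+/+. The knockout is constitutive, so MFP2 was missing from every tissue, the lens included.

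Crystallins are the abundant soluble proteins that make the lens transparent and refractive. The α-crystallins are small heat shock proteins that act as chaperones. αB-crystallin is also made outside the lens, including in glia and in the retina, and is known as a stress-induced gene in many tissues. The β- and γ-crystallins share one fold built from Greek key motifs and are mainly known as lens fibre proteins, although transcripts of several of them have been described in retinas, and γS-crystallin, encoded by Crygs, belongs to the γ side of this family. The question was which of these genes departed in Mfp2-/- retinas from the pattern that they had in common.

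On GRCm38 the 9 genes lie on 6 chromosomes. The α-crystallin genes are at chr17:31677807-31681733, plus strand (Cryaa) and chr9:50751325-50756636, plus strand (Cryab). The β-crystallin genes include 2 neighbouring pairs on chromosome 5, of which Cryba4 (chr5:112246493-112252518, minus strand) and Crybb1 (chr5:112255815-112269585, plus strand) are transcribed away from each other with 3296 bases between them. Crybb2 (chr5:113058258-113070117) and Crybb3 (chr5:113075839-113081584), both on the minus strand, are 5721 bases apart. Cryba1 is at chr11:77718615-77725283, Cryba2 at chr1:74889934-74893143 and Crygs at chr16:22805203-22811577, all on the minus strand.

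Because the genes moved together over the libraries, the promoters of the most abundant α- and β-crystallin gene with a RefSeq window and of the divergent pair on chromosome 5 are shown. The windows run from 250 bases before to 50 bases after the transcription start (RefSeq, GRCm38.p6), 5′ to 3′ on the strand of the gene. Capitals mark the letters TATAAA of the usual core promoter element, the TATA box. They also mark TGCTGA, the half-site of the Maf transcription factors of the lens. Both were searched on both strands, and no marked match overlaps another. The windows are chr17:31677681-31677980, plus strand (Cryaa), chr11:77725244-77725543, minus strand (Cryba1), chr5:112252469-112252768, minus strand (Cryba4) and chr5:112255570-112255869, plus strand (Crybb1).
Cryaa: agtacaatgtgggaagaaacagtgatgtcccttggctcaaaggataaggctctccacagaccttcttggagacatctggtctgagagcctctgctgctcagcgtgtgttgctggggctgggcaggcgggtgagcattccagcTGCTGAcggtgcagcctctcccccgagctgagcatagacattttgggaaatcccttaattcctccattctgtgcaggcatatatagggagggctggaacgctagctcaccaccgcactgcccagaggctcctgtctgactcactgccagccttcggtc
Cryba1: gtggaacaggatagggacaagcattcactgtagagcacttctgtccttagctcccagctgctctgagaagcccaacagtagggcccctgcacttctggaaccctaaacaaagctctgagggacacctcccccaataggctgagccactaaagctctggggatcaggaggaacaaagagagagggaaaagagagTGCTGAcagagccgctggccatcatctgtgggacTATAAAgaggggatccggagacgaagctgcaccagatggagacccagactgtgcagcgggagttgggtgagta
Cryba4: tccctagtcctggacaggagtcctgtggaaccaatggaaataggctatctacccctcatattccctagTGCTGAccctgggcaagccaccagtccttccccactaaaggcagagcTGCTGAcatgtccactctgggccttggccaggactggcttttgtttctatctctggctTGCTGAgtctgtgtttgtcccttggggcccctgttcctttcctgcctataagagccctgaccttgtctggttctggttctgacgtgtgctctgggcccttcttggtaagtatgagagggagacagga
Crybb1: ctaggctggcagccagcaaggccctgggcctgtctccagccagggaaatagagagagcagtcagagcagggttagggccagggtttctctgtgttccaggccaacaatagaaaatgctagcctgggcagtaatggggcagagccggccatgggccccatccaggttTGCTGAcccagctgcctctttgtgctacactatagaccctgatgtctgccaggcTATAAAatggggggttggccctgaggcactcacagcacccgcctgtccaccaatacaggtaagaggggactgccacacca

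Windows were found for 8 of the 9 genes, all but Cryab, whose promoter was therefore not searched. The letters TGCTGA occurred in 7 of these 8, all but Crybb2, where 19.5% of all 32851 promoter windows of this length held them. Cryba4 held 3 matches, whose first bases were at positions -182, -135 and -77 from the start, and Cryaa, Cryba1 and Crybb1 held 1 each, at -108, -57 and -84. TATAAA was present in 4 of 8 windows (Cryba1, Cryba2, Crybb1 and Crygs) and in 13.6% of all windows. Its first base was at -23 in Cryba1, -25 in Crygs and -30 in Crybb1. In Cryba2 it was at -3, so that this match runs across the transcription start. The letters GAANNTTC, part of the element that heat shock factors bind, were in 0 of 8 and in 7.86% of all windows. A match describes the letters only.

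The genotype was checked with Hsd17b4, the gene of MFP2, whose counts in the 4 controls were 47, 20, 78 and 37, while the 4 Mfp2-/- retinas gave 1, 0, 1 and 0. Total counts in genes were 2340974 to 3226187 in control and 1895485 to 2826553 in Mfp2-/- libraries. The share of reads outside genes was 10.8% in Mfp2-/- replicate 2 and 15.7% in Mfp2-/- replicate 3, and 22.6% to 29.9% in the other 6 libraries. Levels are given as CPM, that is counts scaled to library size with TMM factors. A read is taken from the 3′ end once per transcript, so that CPM do not rise with the length of the transcript. From counts of whole retinas alone, fewer cells of a type and less RNA per cell cannot be told apart. For photoreceptors, the paper reported a normal number of nuclei in sections of this age, with more apoptotic photoreceptors.

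The 9 genes together made up 0.159%, 0.0882%, 0.0613% and 0.0420% of the counts in genes in control replicates 1 to 4, and 0.254%, 0.819%, 0.484% and 0.0621% in Mfp2-/- replicates 1 to 4. The spread within a genotype was thus wide, and Mfp2-/- replicate 4 lay among the controls while the other Mfp2-/- retinas lay above them.

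Cryaa, which encodes the mainly lenticular αA-crystallin chaperone, was at 392, 218, 149 and 116 CPM in control replicates 1 to 4 and at 574, 1963, 1179 and 98.2 CPM in Mfp2-/- replicates 1 to 4. Mfp2-/- replicate 4 was the lowest of all 8 retinas, below every control, whereas the other 3 Mfp2-/- retinas were above every control. Control mice averaged 219 ± 123 CPM and Mfp2-/- mice 954 ± 805 CPM (SD, n = 4 each), and Cryaa passed the test narrowly (log2 fold change 2.12, standard error 0.70, edgeR adjusted p = 0.0459).

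Cryab, the gene of αB-crystallin, was at 243, 164, 115 and 96.5 CPM in control replicates 1 to 4 and at 461, 1563, 943 and 243 CPM in Mfp2-/- replicates 1 to 4. Here Mfp2-/- replicate 4 did not lie with the lowest controls but beside the highest, at 243.4 against 242.7 CPM in control replicate 1. Cryab was therefore the 1 gene of the 9 in which every Mfp2-/- retina lay above every control, by a margin of less than 1 CPM; of all genes tested, 15.1% were separated in this direction. The mean rose from 155 ± 65.4 to 803 ± 585 CPM (SD, n = 4 each), a log2 fold change of 2.38 (standard error 0.52, edgeR adjusted p = 0.00674), the largest fold change and the smallest adjusted p of the 9. The first 1030 bases of Cryab overlap Hspb2, a small heat shock gene on the other strand that had 0 to 8 counts per library. The largest exon overlap was 252 bases. The overlap lies at the start of Cryab, while the libraries hold the 3′ ends of transcripts. Whether the counting used strand is not given in the sources used here, and reads of the shared bases are uncertain for that reason. Reads of shared bases are likewise uncertain for Cryaa, which shares 157 bases of an exon with AC090881.2 on the other strand.

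Among the acidic β-crystallins, Cryba1, which encodes both βA3- and βA1-crystallin, was the most abundant of the β-crystallins, at 495, 242, 181 and 105 CPM in control replicates 1 to 4 and at 692, 1942, 1029 and 116 CPM in Mfp2-/- replicates 1 to 4. The groups overlapped, since Mfp2-/- replicate 4 lay below 3 of the controls. With means of 256 ± 169 and 945 ± 764 CPM the log2 fold change of 1.88 (standard error 0.69) did not pass the test (edgeR adjusted p = 0.0649). Cryba2 went from 25.8 to 97.2 CPM over the control and from 23.5 to 556 CPM over the Mfp2-/- retinas, and its log2 fold change of 2.14 (standard error 0.74) missed the threshold as well (edgeR adjusted p = 0.0529). Cryba4, the least abundant of the 9, ran from 10.1 to 50.6 CPM in controls and from 8.09 to 161 CPM in Mfp2-/- mice (log2 fold change 1.89, standard error 0.71, edgeR adjusted p = 0.0735). In both genes Mfp2-/- replicate 4 was the lowest retina of all.

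Of the basic β-crystallins, Crybb1 was at 59.0, 35.3, 23.5 and 18.5 CPM in control replicates 1 to 4 and at 108, 263, 187 and 21.0 CPM in Mfp2-/- replicates 1 to 4. Its means of 34.1 ± 18.0 and 145 ± 104 CPM differed with a log2 fold change of 2.08 (standard error 0.61, edgeR adjusted p = 0.0289). Crybb3 was at 89.5, 52.0, 21.0 and 19.9 CPM in control and at 128, 358, 283 and 26.1 CPM in Mfp2-/- replicates 1 to 4, and it also rose (log2 fold change 2.13, standard error 0.70, edgeR adjusted p = 0.0455). In both genes 3 Mfp2-/- retinas stood above all controls and replicate 4 did not. Crybb2, the neighbour of Crybb3, ranged from 15.0 to 57.5 CPM in control and from 10.7 to 255 CPM in Mfp2-/- retinas without passing the test (log2 fold change 1.96, standard error 0.72, edgeR adjusted p = 0.0652).

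Crygs had 202, 109, 74.8 and 31.0 CPM in control replicates 1 to 4 and 290, 833, 449 and 45.6 CPM in Mfp2-/- replicates 1 to 4. Its controls differed most among the 9 genes, by 6.50-fold between the highest and the lowest. The log2 fold change was 1.96 (standard error 0.73, edgeR adjusted p = 0.0690), and the groups overlapped.

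**Figure D1:**
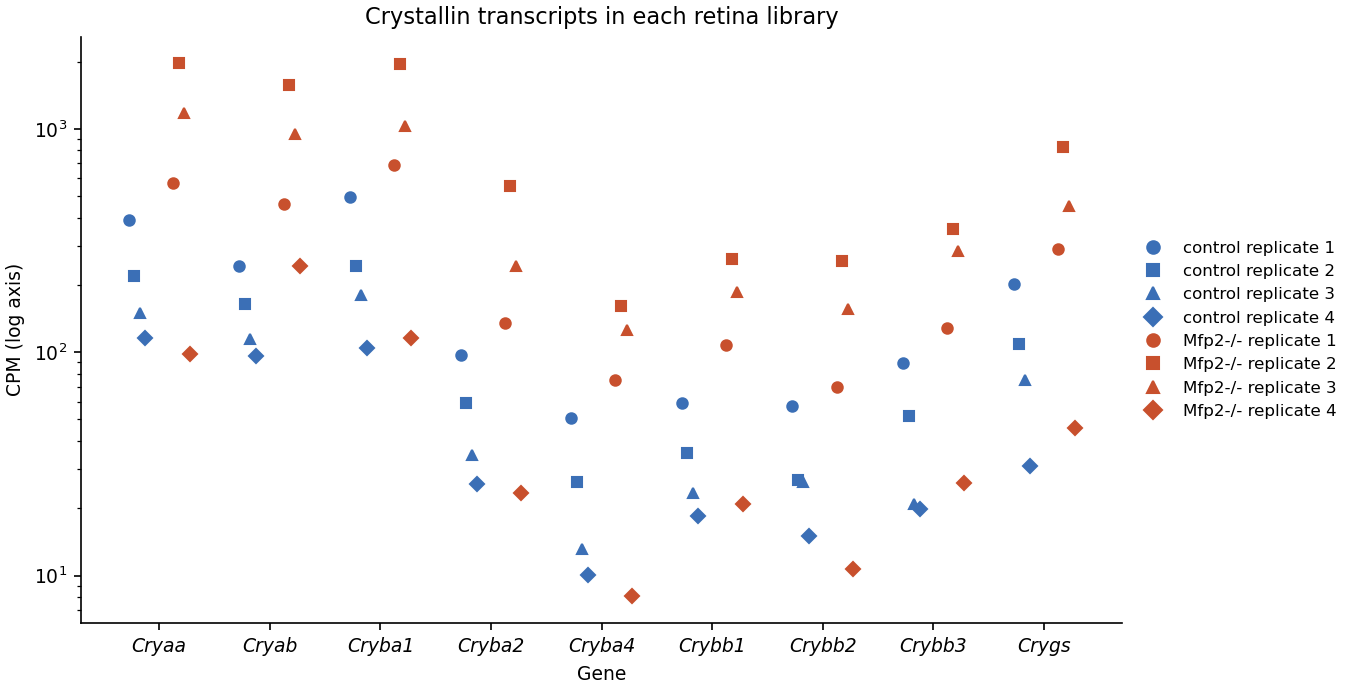
CPM on a log axis of the 9 crystallin genes (horizontal axis) in each library; 1 point is 1 mouse, blue for control and red for Mfp2-/-, and the shape gives the replicate number. Mfp2-/- replicates 2, 3 and 1 stand highest in every gene, whereas Mfp2-/- replicate 4 sits with the lower controls except in Cryab, where it is at 243 CPM.

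In all, 4 of the 9 genes were called upregulated (Cryaa, Cryab, Crybb1 and Crybb3) and 0 downregulated by edgeR at an adjusted p under 0.05, beside 13.8% of all genes tested that were called upregulated and 13.2% called downregulated. The other 5 had an unadjusted p under 0.05, as did 4999 of the 12516 genes tested. The median log2 fold change was 2.08, where that of all genes tested was -0.0039. The fold changes of the 9 genes lay between 1.88 and 2.38, with standard errors of 0.52 to 0.74. These errors include the variation between libraries that the 9 genes shared, so they do not measure differences between the genes. The calls depended on single libraries: without Mfp2-/- replicate 4 all 9 genes were called, and 1 was called, each time Cryab, without control replicate 2, 3 or 4 or without Mfp2-/- replicate 3, while 2 were called without Mfp2-/- replicate 2. Cryab was called whichever library was left out, with a log2 fold change of 1.83 to 2.70. Without both Mfp2-/- replicates 2 and 3, which had the fewest reads outside genes and the most crystallin reads, its log2 fold change was 1.19 (edgeR adjusted p = 0.00799).

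The 9 genes had the same libraries at the top, in the same order. Mfp2-/- replicate 2 ranked 1, Mfp2-/- replicate 3 ranked 2 and Mfp2-/- replicate 1 ranked 3 of the 8 libraries in every gene, and control replicates 1 and 2 ranked 4 and 5 in 8 of the 9 genes. In Cryab, Mfp2-/- replicate 4 ranked 4 and these controls 5 and 6. In the other 8 genes Mfp2-/- replicate 4 shared the lowest ranks with control replicates 3 and 4 in an order that varied, at rank 8 in Cryaa, Cryba2, Cryba4 and Crybb2, rank 7 in Cryba1, Crybb1 and Crygs, and rank 6 in Crybb3. The highest control exceeded the lowest by 2.52-fold in Cryab, the smallest such ratio, to 6.50-fold in Crygs. Between Mfp2-/- retinas the ratio ran from 6.42 in Cryab, again the smallest, to 23.9 in Crybb2.

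The γ-crystallins Cryga to Crygf, which share 17.0% to 49.0% of the 50-base windows at their 3′ ends with each other or another gene so that reads of single copies are uncertain, were therefore summed. In each of the 6 genes the top 3 libraries were those of the 9 genes, in the same order, and Mfp2-/- replicate 4 ranked 7. Their sum was 1172, 654, 573 and 222 CPM in control replicates 1 to 4 and 2172, 4103, 3107 and 269 CPM in Mfp2-/- replicates 1 to 4. In none of the 6 genes was the change called (log2 fold changes 1.81 to 2.07, edgeR adjusted p 0.0556 to 0.0823). All 6 had an unadjusted p under 0.05 in that test, as did 4999 of the 12516 genes tested. The 9 genes of interest shared 0 such windows with any other gene. The summed level of these 9 was 1.11 to 1.97 times that of the γ-crystallins in control and 1.17 to 2.20 times in Mfp2-/- retinas.

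Other genes of lens fibres, taken from a list of 22 symbols, had lower counts. The aquaporin gene Mip, with 54, 15, 35 and 24 counts in the controls and 130, 622, 489 and 18 in Mfp2-/- replicates 1 to 4, was called upregulated (log2 fold change 3.50, edgeR adjusted p = 0.0150). The membrane protein gene Lim2 had 18, 8, 7 and 1 counts in control and 47, 78, 90 and 7 counts in Mfp2-/- replicates 1 to 4 (log2 fold change 2.79, edgeR adjusted p = 0.0203), and the beaded filament gene Bfsp2 had 29, 11, 14 and 5 against 59, 71, 93 and 17 counts (log2 fold change 2.10, edgeR adjusted p = 0.0179). In all 3 genes Mfp2-/- replicate 4 was again the lowest Mfp2-/- retina, with a count within the range of the control counts. Bfsp1, which encodes the partner of Bfsp2, had 15 to 59 counts in control and 17 to 152 in Mfp2-/- retinas, Grifin 11 to 32 and 3 to 148, and Lgsn 5 to 15 and 8 to 40, without being called. Lctl, a klotho-related gene, had 0 to 2 counts in control and 10, 18, 24 and 0 in Mfp2-/- replicates 1 to 4, Dnase2b, the nuclease that clears the nuclei of lens fibres, 0 to 1 and 2 to 5, Birc7 0 to 2 and 1 to 5, and Hsf4, the lens heat shock factor, 2 to 4 and 3 to 11.

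Tdrd7 and Caprin2, which encode RNA granule proteins studied in the lens, did not have the crystallin pattern. Tdrd7 had 221, 360, 524 and 459 counts in control and 65, 86, 86 and 36 counts in Mfp2-/- replicates 1 to 4, a decrease (log2 fold change -2.41, edgeR adjusted p = 4.9e-04). Caprin2 had 34 to 60 counts in control and 26 to 61 in Mfp2-/- retinas (log2 fold change 0.06, edgeR adjusted p = 0.872). Of the 14 lens genes tested, 3 were called upregulated and 1 downregulated, with a median log2 fold change of 1.85 against -0.0039 for all genes. Gja3, a lens connexin gene, had 6 and 3 counts in Mfp2-/- replicates 2 and 3 and 0 elsewhere, and Lenep and Foxe3 had no counts. The γ-crystallins, Mip, Lim2 and Bfsp2 were thus highest in the same 3 Mfp2-/- libraries as the 9 crystallin genes, and the part of lens RNA in the levels was not tested.

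The 5 genes outside the 9 whose log2 CPM, centred on the group means, followed those of the 9 most closely over the 8 libraries were Cdc42se1 (Pearson r = 0.994), Atp5g1 (0.978), Crygc (0.977), Crygd (0.976) and Lim2 (0.972). Cdc42se1 and Atp5g1 varied little, with a centred SD of 0.30 and 0.27 on the log2 scale, against 1.26 for Crygc. Among the 9, each gene's correlation with the mean of the other 8 was lowest in Cryab, at 0.963, and highest in Crybb1, at 0.997. Cryab also had the smallest centred SD, 0.86, where the other 8 had 1.14 to 1.41. These values are descriptions over 8 libraries that share depth and scaling.

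To set each gene against the others within a library, the log2 ratio of its count to the summed counts of the other 8 was taken, which does not depend on the scaling of the library. For Cryab the ratio was -2.57, -2.23, -2.19 and -1.82 in control replicates 1 to 4 and -2.17, -2.02, -1.95 and -0.52 in Mfp2-/- replicates 1 to 4. Mfp2-/- replicate 4 stood apart from the other 7 retinas, and the other 3 Mfp2-/- retinas were within the range of the controls. The group means differed by 0.54, with an SD of 0.31 in control and 0.77 in Mfp2-/- retinas. The difference did not pass the exact permutation test (two-sided, p = 0.229, where 0.0286 is the smallest p possible with 4 mice against 4). Without Mfp2-/- replicate 4 the difference was 0.15.

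For the other 8 genes the differences of the group means were -0.34 (Crybb2) to 0.13 (Crybb3). The exact permutation test, two-sided and unadjusted for the 9 ratios, gave p = 0.143 for Cryba1 and Crybb2 and between 0.457 and 1 for the other 6. A departure from the shared level between the genotypes was thus detected in 0 of 9 genes. With 4 mice against 4 this test passes only where the ratios of the groups do not overlap, so smaller departures could be missed. In Mfp2-/- replicate 4 the ratio of Cryaa was -2.33, where the other retinas had -1.77 to -1.47. Cryab is part of the sum to which Cryaa is compared. With Cryab taken out of that sum, an alternative chosen after seeing the data, Cryaa was at -1.35 in this retina, within the -1.42 to -0.95 of the other 7 retinas. The same was true of Cryba1, Cryba2, Crybb3 and Crygs. Cryba4 and Crybb2 then lay below the lowest of the other retinas, at -5.37 against -5.26 and -4.96 against -4.83, and Crybb1 above the highest, at -3.96 against -4.12, differences that were small beside that of Cryab.

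**Figure D2:**
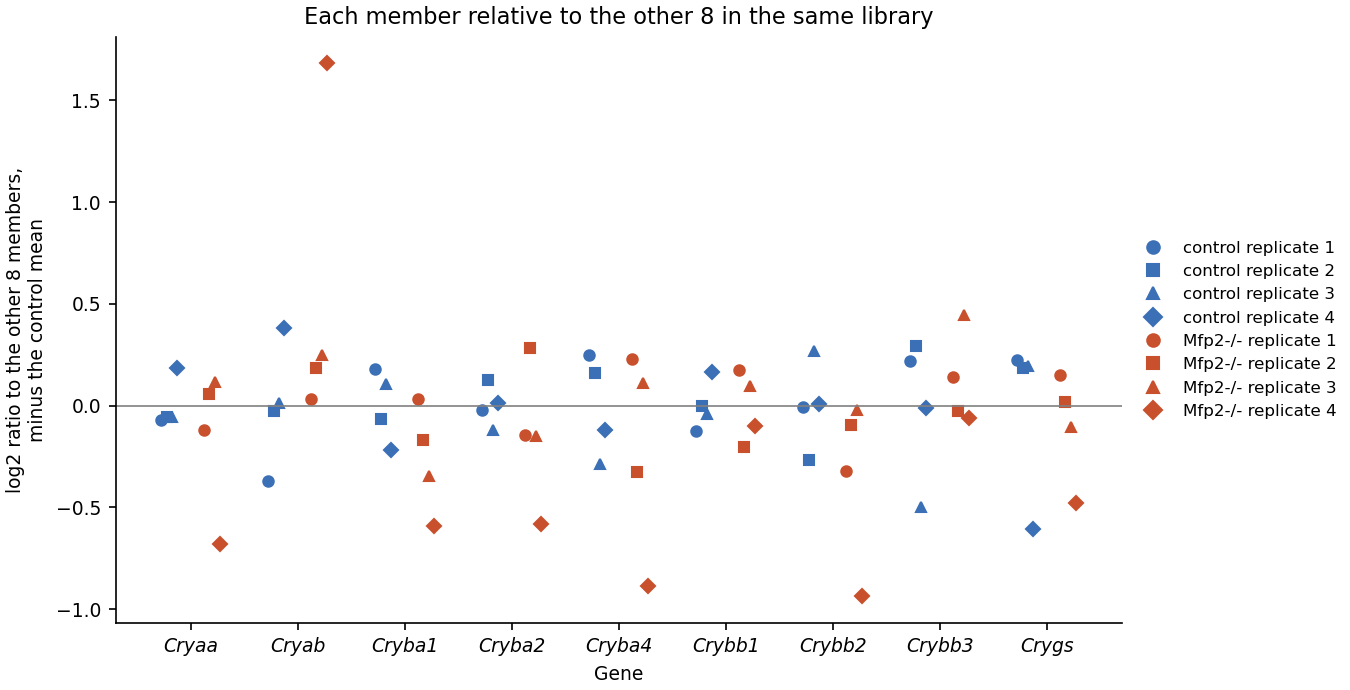
Log2 ratio of each of the 9 genes to the sum of the other 8 in the same library, minus the mean of the controls for that gene; 1 point is 1 mouse, blue for control and red for Mfp2-/-, and the shape gives the replicate number. The ratio of Cryab in Mfp2-/- replicate 4 (-0.52 before subtraction of the control mean of -2.20) stands above all others.

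The pair of α-crystallin genes showed the same retina apart. Cryab took 38.3%, 42.9%, 43.5% and 45.3% of the α-crystallin reads in control replicates 1 to 4, and 44.5%, 44.3%, 44.4% and 71.3% in Mfp2-/- replicates 1 to 4. The share in Mfp2-/- replicate 4 (662 of 929 reads, 95% exact Clopper-Pearson interval 68.2% to 74.2%) was outside the intervals of all other retinas, which ran from 36.0% to 49.4%. Whether reads were collapsed by molecular identifiers is not given in the sources used here. The intervals take each read as independent and cover counting error only. The difference between the means of 42.5% ± 3.00 in control and 51.1% ± 13.4 in Mfp2-/- retinas (SD, n = 4) did not pass the test (exact permutation test, two-sided, p = 0.143). Without Mfp2-/- replicate 4 the Mfp2-/- mean was 44.4% ± 0.109 (n = 3). Of the reads of all 9 genes, Cryab took 14.4% to 22.0% in control and 18.2% to 41.1% in Mfp2-/- retinas.

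Control replicate 4 had the γ-crystallin level closest to that of Mfp2-/- replicate 4, 222 against 269 CPM, and allowed a comparison of single mice, without replication. Cryab was 2.52-fold higher in Mfp2-/- replicate 4 than in control replicate 4. The other 8 genes were between 0.712-fold (Crybb2) and 1.47-fold (Crygs), 4 of them above 1, and the 6 γ-crystallins between 1.05- and 1.58-fold. Against control replicate 3, which had a γ-crystallin level of 573 CPM, the ratio was 2.12 for Cryab, 1.25 for Crybb3 and below 1 for the other 7 genes.

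**Figure D3:**
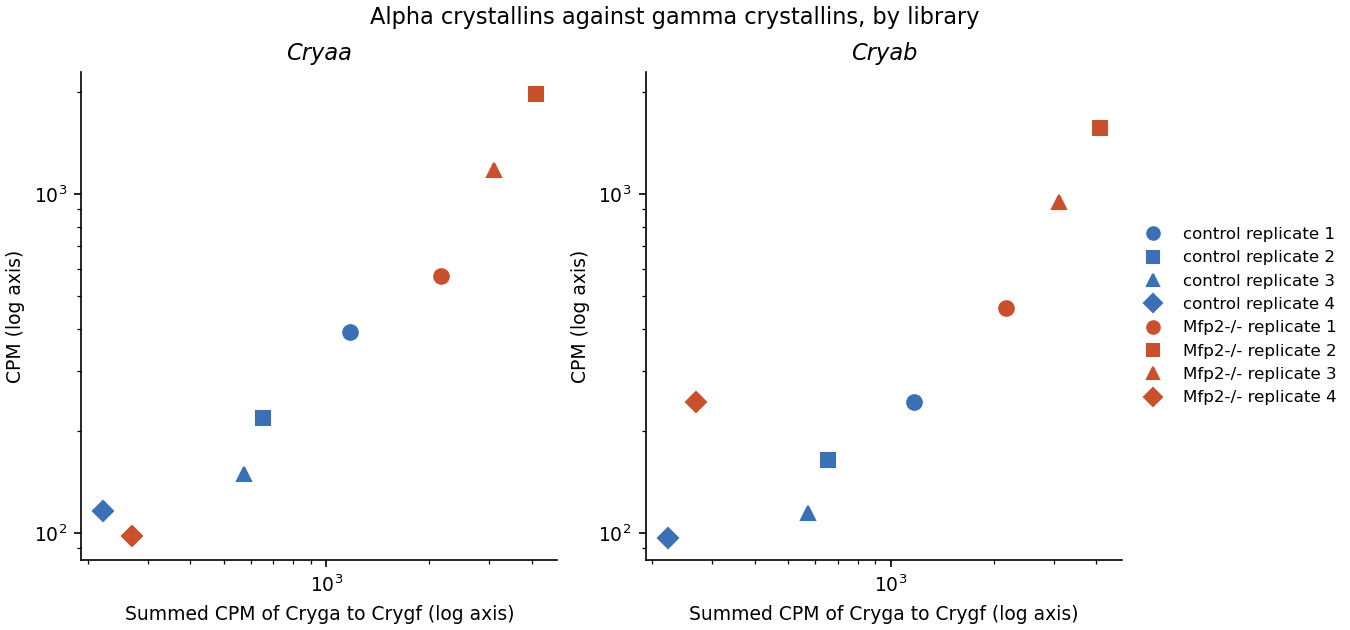
CPM of Cryaa (left) and Cryab (right) against the summed CPM of the γ-crystallins Cryga to Crygf, both on log axes; 1 point is 1 mouse, blue for control and red for Mfp2-/-, and the shape gives the replicate number. Mfp2-/- replicate 4 has 98.2 CPM of Cryaa, near the controls of like γ-crystallin level, and 243 CPM of Cryab, above them.

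The summed γ-crystallin level was then entered as a covariate beside genotype in the edgeR fit over all genes, a setting also chosen after seeing the data. In this fit Cryab had a log2 fold change of 1.26 at a given γ-crystallin level (standard error 0.28, adjusted p = 0.0114). It was the 1 gene of the 9 to be called, where 7.95% of all genes tested were called upregulated in that fit. The other 8 had log2 fold changes from -0.17 (Crybb2) to 0.41 (Crybb1, adjusted p = 0.261). Each library was then left out of this fit in turn. Cryab kept its call without any 1 of the other 7 libraries (log2 fold change 1.15 to 1.42, adjusted p 6.6e-04 to 0.0403) and lost it without Mfp2-/- replicate 4 (log2 fold change 0.96, standard error 0.57, adjusted p = 0.496). Without that retina 0 of the 9 genes and 361 of all genes were called, against 2109 of all genes with it. The γ-crystallin levels of the groups then do not overlap, with 222 to 1172 CPM in control and 2172 to 4103 CPM in Mfp2-/- retinas. Genotype and γ-crystallin level can hardly be told apart in that case. At a γ-crystallin level found in both groups, the estimate thus rests on 1 Mfp2-/- retina. The ratio of Cryab counts to summed γ-crystallin counts was also taken in each library. This ratio was 0.212, 0.381 and 0.304 in Mfp2-/- replicates 1 to 3, within the range of the controls, which reached 0.435. Only Mfp2-/- replicate 4, at 0.904, was above every control. The group means of the log2 ratio differed by 0.572, which did not pass (exact permutation test, two-sided, p = 0.314). The summed lens list was used as another covariate. Tdrd7, which fell, made up 5.98% to 38.2% of this sum in control and 0.825% to 4% in Mfp2-/- retinas. The make-up of this covariate thus differed between the genotypes. With it the log2 fold change of Cryab was 1.36 (standard error 0.25, adjusted p = 0.00414) and that of Crybb1 0.53 (adjusted p = 0.0858). Only Cryab of the 9 was called in this fit.

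**Figure D4:**
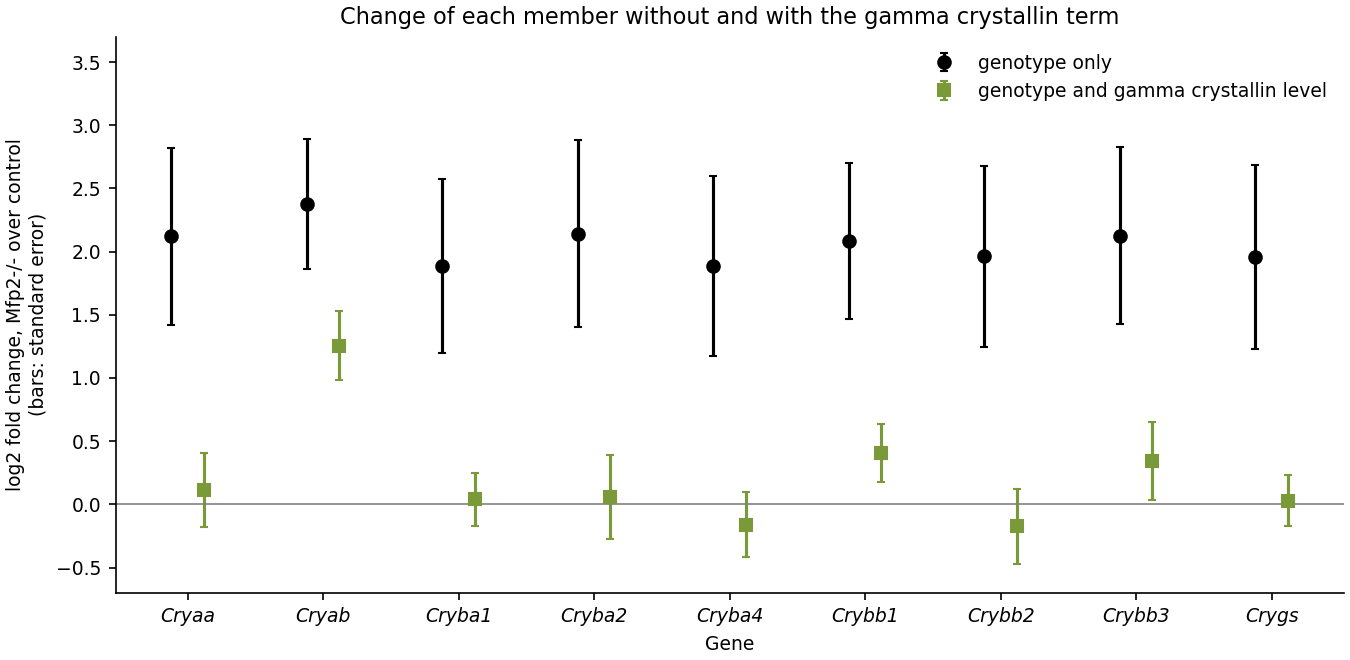
Log2 fold change of Mfp2-/- over control for the 9 genes, from the fit with genotype only (black circles) and from the fit that also holds the summed γ-crystallin level (green squares); bars are standard errors, 4 mice per group. With the γ-crystallin term Cryab is at 1.26 and the other 8 genes are between -0.17 and 0.41.

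Genes that share a name or a function with the crystallins were set beside them. Crym, which encodes a thyroid hormone binding protein of Müller glia and is no lens crystallin in the mouse, averaged 50.8 ± 2.53 CPM in controls and 196 ± 24.4 CPM in Mfp2-/- mice (SD, n = 4; log2 fold change 1.95, edgeR adjusted p = 2.0e-06). Its counts were 138, 116, 147 and 152 in control and 572, 442, 566 and 452 in Mfp2-/- replicates 1 to 4, so that Mfp2-/- replicate 4 was raised like the others. With the γ-crystallin covariate the log2 fold change of Crym was 1.84. Of the 5 symbols of this kind tested 1 rose and 0 fell, with a median log2 fold change of 0.52. Those not called were Cryzl1 (-0.31), Crybg3 (0.52), Cryl1 (0.81) and Cryz (0.11, chosen after its value was seen), in log2 fold change.

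Of the listed genes with an Hspb symbol, 4 were tested, of which 0 rose and 1 fell (median log2 fold change 0.42). Hspb6, which encodes a cytosolic relative of αB-crystallin, fell from 217 ± 35.7 to 92.1 ± 19.0 CPM (SD, n = 4; log2 fold change -1.24, edgeR adjusted p = 5.5e-04). Hspb1, the gene of HSP25 (log2 fold change 1.06, edgeR adjusted p = 0.0877), Hspb8 (0.58) and Hspb11 (0.27) were not called. Of 11 heat shock factors and stress chaperones, 1 rose and 4 fell, with a median log2 fold change of -0.28, where 13.8% of all genes tested rose and 13.2% fell. The inducible Hsp70 genes Hspa1a (log2 fold change -2.09) and Hspa1b (-2.60) fell, although they are near-identical copies whose reads may be shared, as did Hsp90aa1 (-1.40) and Hsf2 (-0.62, a gene chosen after its value was seen). Bag3, a cochaperone gene, rose (1.43, edgeR adjusted p = 0.0105). Of 9 tested regulators of crystallin genes in the lens, 4 rose and 0 fell (median log2 fold change 0.39), namely Sox2 (1.16), Maf (0.81), Pax6 (0.54) and Six3 (0.39), all of which are also expressed in the retina.

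Markers of other tissues were examined in the same libraries. Of 11 tested markers of the retinal pigment epithelium, 1 rose (Slc6a20a, log2 fold change 2.29, edgeR adjusted p = 7.2e-04) and 0 fell, with a median of 0.43, and Dct, Mlana and Tyrp1 were not called. The summed level of the 13 listed markers with a count was 272 to 478 CPM in control and 462 to 796 CPM in Mfp2-/- retinas. Of 4 tested markers of ciliary body, iris and cornea, 2 rose, Aldh3a1 (log2 fold change 1.91) and Bmp4 (1.23), and Tfap2b (0.24), which is also an amacrine cell gene, and Acta2 (0.53) were not called. The sum of the 13 listed markers with a count was 604 to 638 CPM in control and 682 to 823 CPM in Mfp2-/- retinas. Most of it was Tfap2b, with 573 to 604 CPM in control and 616 to 782 CPM in Mfp2-/- retinas. Of 5 tested markers of muscle and blood 0 rose and 0 fell (median -0.87), with the globin genes Hba-a1 (log2 fold change -0.79, edgeR adjusted p = 0.0802), Hbb-bs (-0.88, edgeR adjusted p = 0.0883), Hba-a2 (-0.87) and Hbb-bt (-0.99), copies that may share reads, having the smallest adjusted p. The part of these tissues in the crystallin levels was not tested.

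Of the cells of the neural retina, the rod markers were present in every control, and all 12 tested fell in Mfp2-/- retinas, with a median log2 fold change of -4.28 and with Gnat1 (-5.39), Nrl (-4.99), Prph2 (-4.25) and Nr2e3 (-4.38) at the smallest adjusted p. Of 12 Müller glia markers 7 rose and 0 fell (median 0.95), led by Gfap (3.24), which astrocytes also express, Apoe (1.48), Slc1a3 (1.08) and Sox9 (1.08). Of 5 astrocyte markers 4 rose and 0 fell (median 1.54), with Pdgfra (1.54), Aldh1l1 (2.24) and Gja1 (1.49) next to Gfap, and of 10 ganglion cell markers 7 rose and 0 fell (median 0.53), with Rbpms (0.81), Gap43 (0.71), Nefm (0.54) and Pou4f1 (0.56) first. Both kinds of glia are among the cells known to express Cryab, and the part of glial transcripts in the level of Cryab was not tested.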

How the data were processed

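The deposited files hold raw read counts per gene symbol, 1 file per library, which the authors did not normalize. The submitters' processing notes list FastQC 0.11.7, HISAT2, SAMtools 1.5, HTSeq 2.7.14 and mm10. Which HISAT2 version and annotation were used, and whether strand was, is not given in the sources used here. Single-end reads of 50 bases were sequenced on a HiSeq4000. A table of the whole series was not used here, and reads without a gene were left out of library sizes. Labels gave the groups, and the heterozygous mouse is a control, as in the study.

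Counts were fitted over all genes in R 4.3.3 with edgeR 4.0.16 (TMM factors, filterByExpr, quasi-likelihood test, Benjamini-Hochberg adjustment, threshold 0.05; log2 CPM with a prior count of 2), where the study used limma. All adjusted p-values are from this test. Alternatives used DESeq2 1.42.0 and limma 3.58.1 (voom), other factors and filters, covariates, the replicate number as a block, and leaving out libraries. Ratios used a pseudocount of 0.5 and exact permutation tests (NumPy 2.4.6, SciPy 1.17.1, pandas 2.3.3; figures with Matplotlib 3.10.9). The fits were tested on simulated data with random seed 1.

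The members and lists were chosen with earlier results of these data known. Named genes were the 9 crystallin genes, Hsd17b4, lens genes with at least 10 counts, up to 4 genes per other list with the smallest adjusted p, and the 5 genes most like the 9. Genes outside this rule are marked or given by counts only. Not every gene taken by the rule is reported here. Gene positions are those of GENCODE M21 and promoters those of RefSeq. Each library is 1 mouse, so replicates are biological.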

Additional observations from a re-analysis of the deposited data

Results flagged for a closer look

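In 40 groups of 4 retinas (CPM and log2 ratio of each of the 9 genes, their summed CPM and the Cryab share, per genotype), 1 retina stood far from the other 3 in 4 cases by Dixon's criterion, which chance meets in about 1 in 20 groups. Cryab had a log2 ratio to the other 8 genes of -0.52 in Mfp2-/- replicate 4 and took 71.3% of the α-crystallin reads there, 2 values that rest on the same counts. In control replicate 4, the control with the fewest crystallin reads, the log2 ratio was -1.47 for Cryaa, above the other controls, and -3.71 for Crygs, below them.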

How the results depend on the processing

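Cryab was called upregulated in 18 other settings of the fit without the γ-crystallin covariate, with log2 fold changes of 1.19 to 2.70 and adjusted p of 3.1e-04 to 0.0265. The number of the 9 genes called, 4 in the reported fit, was 8 with either upper-quartile factors or total counts (which put the all-gene median at 0.12 instead of -0.0039), and 9 without a filter on low counts. It was 1 with limma-voom, with the lens covariate, without both Mfp2-/- replicates 2 and 3 and with the γ-crystallin covariate, 0 to 1 when each library in turn was left out of that fit (0 without Mfp2-/- replicate 4), and 1 to 9 when each was left out of the reported fit. With the lens covariate Cryba4 (-0.041) and Crybb2 (-0.070) turned negative, with the γ-crystallin covariate Cryba4 (-0.16) and Crybb2 (-0.17), and with the latter without Mfp2-/- replicate 4 Cryba1 (-0.059), Cryba4 (-0.041) and Crygs (-0.41). With the γ-crystallin covariate and control replicates 1, 2, 3 or 4 or Mfp2-/- replicates 1, 2 or 3 left out, Cryba4 was at -0.038, -0.13, -0.34, -0.16, -0.11, -0.16 and -0.19. Crybb2 was at -0.23, -0.28, -0.22 and -0.16 without control replicates 1 to 4 and at -0.23 and -0.19 without Mfp2-/- replicates 2 and 3. Without control replicate 3 Cryaa (-0.033), Cryba1 (-0.058), Cryba2 (-0.093) and Crygs (-0.039) were negative, and without Mfp2-/- replicate 2 Cryba1 (-0.024), Cryba2 (-0.047) and Crygs (-0.033). The γ-crystallin covariate, the ratios to γ-crystallins or without Cryab in the sum were added after seeing the data. Of the ratios, 1 passed when set against the summed lens list, that of Crybb1 (difference 0.48, exact permutation p = 0.0286), where it was -0.0073 against the other 8 genes. Against that list the differences of the 9 genes ran from 0.15 (Crybb2) to 0.88 (Cryab, exact permutation p = 0.0571). The cause was not tested, but the lens list holds Tdrd7, which fell. With 1 library left out the exact test cannot pass the threshold, so those ratios are values only. Deviations of libraries with the same replicate number correlated by 0.0798, -0.161, 0.251 and 0.211, so the numbers were not taken to pair the mice. With the replicate block 4 of the 9 and 2845 of all genes were called, against 3377 without it; of the 9, Cryaa lost its call (adjusted p = 0.0812) and Crygs gained one (adjusted p = 0.0291). The lowest crystallin counts, 22 to 29 for Cryba4 and Crybb2 in Mfp2-/- replicate 4 and Cryba4 in control replicate 4, limit the precision of their ratios.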
